A study of Mus musculus with 14 samples.

Results

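A set of 40 genes of mitosis and cytokinesis was followed in mouse erythroid progenitors with and without erythropoietin (EPO). Of the 40 listed genes, 39 had at least 1 Affymetrix probe set that the platform annotation gives to that gene alone, and together they held 84 of the 45037 probe sets tested, against 18193 genes named in this way on the whole array. Ccnb1, which encodes cyclin B1, had no probe set naming it alone and therefore has no value. Among the 39 genes, 14 had 1 probe set, 12 had 2, 8 had 3, 3 had 4 and 2 had 5. A gene is represented here by its probe set with the largest SD over the 14 arrays, a choice that also takes in any difference with stage or EPO.

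By the labels, the cells came from bone marrow of female wild-type C57Bl/6 mice aged 8 to 12 weeks. They were grown in SP34ex medium, which per the methods held EPO, stem cell factor and dexamethasone during the expansion of all groups. Stage E1 cells, described in the labels as similar to erythroid colony-forming units, were taken on day 3 by removing Lin+ cells and selecting for Kit and CD71. Stage E2 cells, labelled as proerythroblasts, were taken on day 3.5 from parallel cultures by removing Lin+ and then Kit+ cells and selecting for CD71. All cells spent 5.5 h without hematopoietic cytokines, and then 90 min with EPO at 4 U/mL (EPO-challenged) or at 0 U/mL (unchallenged). Stage E1 had 4 unchallenged and 4 EPO-challenged arrays and stage E2 had 3 of each, all labelled as biological replicates. By the labels the stages differ at once in culture day and in the Kit selection, so these cannot be told apart from maturation. The paper's methods differ from the labels, with day 3.5 for the isolation of all stages and a wider range of mouse ages. No agent other than EPO and no altered allele separates the groups, and the cells are expanded, selected populations rather than fresh marrow.

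In a dividing cell, cyclin B bound to CDK1 starts mitosis once CDC25 phosphatases have removed inhibitory phosphates, and the spindle checkpoint then holds CDC20 and the anaphase-promoting complex (APC/C) back until each kinetochore is attached to the spindle. Cytokinesis follows from a bundled central spindle that recruits the RhoA activator ECT2 and the contractile ring. Early erythroid progenitors divide rapidly, and most of these genes are transcribed mainly in G2 and mitosis, under repressor and activator complexes that bind a CHR element (cell cycle genes homology region) near the start site and CCAAT boxes upstream of it.

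Promoter sequences show what the members share beyond their function. RefSeq promoter windows on GRCm38.p6, running from 250 bases before to 50 after the start site, were at hand for 34 of the 40 genes (36 promoters), and Tpx2, Cdc25c, Incenp, Ccna2, Kif20a and Aurkb had none in the table used. The CHR letters TTTGAA, read on both strands, were in 24 of the 36 promoters (66.7%), against 17.9% of 32851 promoters of the same length. CCAAT, read on both strands, was in 27 of the 36 (75%), against 37.4% of all promoters. Both together stood in 21 of the 36 (58.3%), against 6.95%. Counted by gene, 22 of the 34 held TTTGAA, 25 held CCAAT and 19 held both. Of 30 TTTGAA matches in member promoters, 24 lay within 50 bases of the start, and of 61 CCAAT matches, 34 lay from 150 to 30 bases before it. Ect2 and Prc1 each have a pair of overlapping windows, so their matches enter these counts more than once. Positions were not taken over all promoters. The related letters TTTAAA were in 9 member promoters (25%, all promoters 13.2%) and TTCGAA in 4 (11.1%, all promoters 1.56%). By their letters these 3 motifs cannot overlap one another, and a CCAAT match can overlap one of them by at most 1 base.

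The following windows, from 110 bases before the start through its first 30 bases, belong to members whose values are described below, and are printed on the gene's own strand, with TTTGAA and CCAAT in capitals (as TTCAAA or ATTGG where they lie on the other strand). The first 7 hold both elements and were chosen to show them, and the last pair, Nusap1 and Ccnb1ip1, are the members that passed the test with EPO in stage E1 and hold neither in the stretch printed. The regions are, in the order printed, chr9:70421525-70421664 (minus strand), chr10:69352883-69353022 (minus), chr4:118437314-118437453 (minus), chr2:164769819-164769958 (plus), chr1:189688057-189688196 (minus), chr11:40733408-40733547 (minus), chr9:61946770-61946909 (minus), chr2:119618188-119618327 (plus) and chr14:50795699-50795838 (minus).
Ccnb2: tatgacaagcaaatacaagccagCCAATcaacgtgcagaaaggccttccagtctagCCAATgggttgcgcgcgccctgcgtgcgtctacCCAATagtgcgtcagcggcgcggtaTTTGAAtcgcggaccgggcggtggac
Cdk1: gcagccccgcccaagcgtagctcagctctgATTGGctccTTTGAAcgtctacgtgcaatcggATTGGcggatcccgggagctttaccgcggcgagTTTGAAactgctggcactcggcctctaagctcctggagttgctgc
Cdc20: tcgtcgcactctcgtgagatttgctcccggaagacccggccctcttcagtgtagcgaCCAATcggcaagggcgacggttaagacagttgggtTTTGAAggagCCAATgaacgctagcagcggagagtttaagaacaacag
Ube2c: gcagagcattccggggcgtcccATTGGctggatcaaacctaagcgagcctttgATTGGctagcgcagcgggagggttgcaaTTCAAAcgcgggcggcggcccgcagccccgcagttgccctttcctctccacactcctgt
Cenpf: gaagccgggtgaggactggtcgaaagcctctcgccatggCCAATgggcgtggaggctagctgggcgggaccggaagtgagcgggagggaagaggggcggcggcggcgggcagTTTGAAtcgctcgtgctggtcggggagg
Hmmr: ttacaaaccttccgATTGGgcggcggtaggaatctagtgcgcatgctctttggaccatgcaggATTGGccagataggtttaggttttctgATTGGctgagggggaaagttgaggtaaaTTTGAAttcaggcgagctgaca
Kif23: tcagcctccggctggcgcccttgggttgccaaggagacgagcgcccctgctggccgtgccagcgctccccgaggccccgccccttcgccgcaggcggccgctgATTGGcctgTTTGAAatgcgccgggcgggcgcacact
Nusap1: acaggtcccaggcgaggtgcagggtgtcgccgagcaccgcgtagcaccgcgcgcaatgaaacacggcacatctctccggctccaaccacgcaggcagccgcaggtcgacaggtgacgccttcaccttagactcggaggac
Ccnb1ip1: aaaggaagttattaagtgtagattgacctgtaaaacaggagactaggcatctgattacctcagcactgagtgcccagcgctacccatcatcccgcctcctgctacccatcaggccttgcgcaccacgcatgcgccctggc
A letter match is not a binding site, and its absence from these windows says nothing about any factor.

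The values are log2 GC-RMA signals from which 1 constant per probe set had been subtracted, so differences between arrays can be read and levels cannot. Array medians over all probe sets lay between -0.02 and 0.03. Kit was lower in stage E2 without EPO (log2 difference -3.98). As the cells were selected by Kit, that difference is no check of the stage labels. The erythrocyte anion exchanger gene Slc4a1 was higher in unchallenged E2 (6.61). Genes of some other cell types also differed between the stages. Of 14 neutrophil markers, 8 were lower in unchallenged stage E2 and 0 were higher. Mpo, the neutrophil myeloperoxidase gene, lay between 9.06 and 9.88 in unchallenged E1 and between -0.08 and -0.01 in unchallenged E2, and S100a8 between 9.26 and 9.71 and between -0.05 and 0.01. Lower too were 4 of 8 mast cell and basophil markers (Hdc, -4.73), 4 of 10 monocyte and macrophage markers (Lyz2, -4.34), and 1 of 9 B cell markers (Ptprc, -3.97), with 0 of 8 T cell markers passing. Over all genes 13.4% were higher and 13.8% lower. The B cell count, from Ptprc alone, is near that share and does not show a difference in B cells. Of 8 megakaryocyte markers, 6 were higher in E2 (Ppbp, 4.33). Each list's summed level and any marker at 0 cannot be given from centred values. The part of these cells in the stage differences below was not tested, and in such bulk RNA fewer cells of a type and less RNA per cell cannot be told apart.

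**Figure D1:**
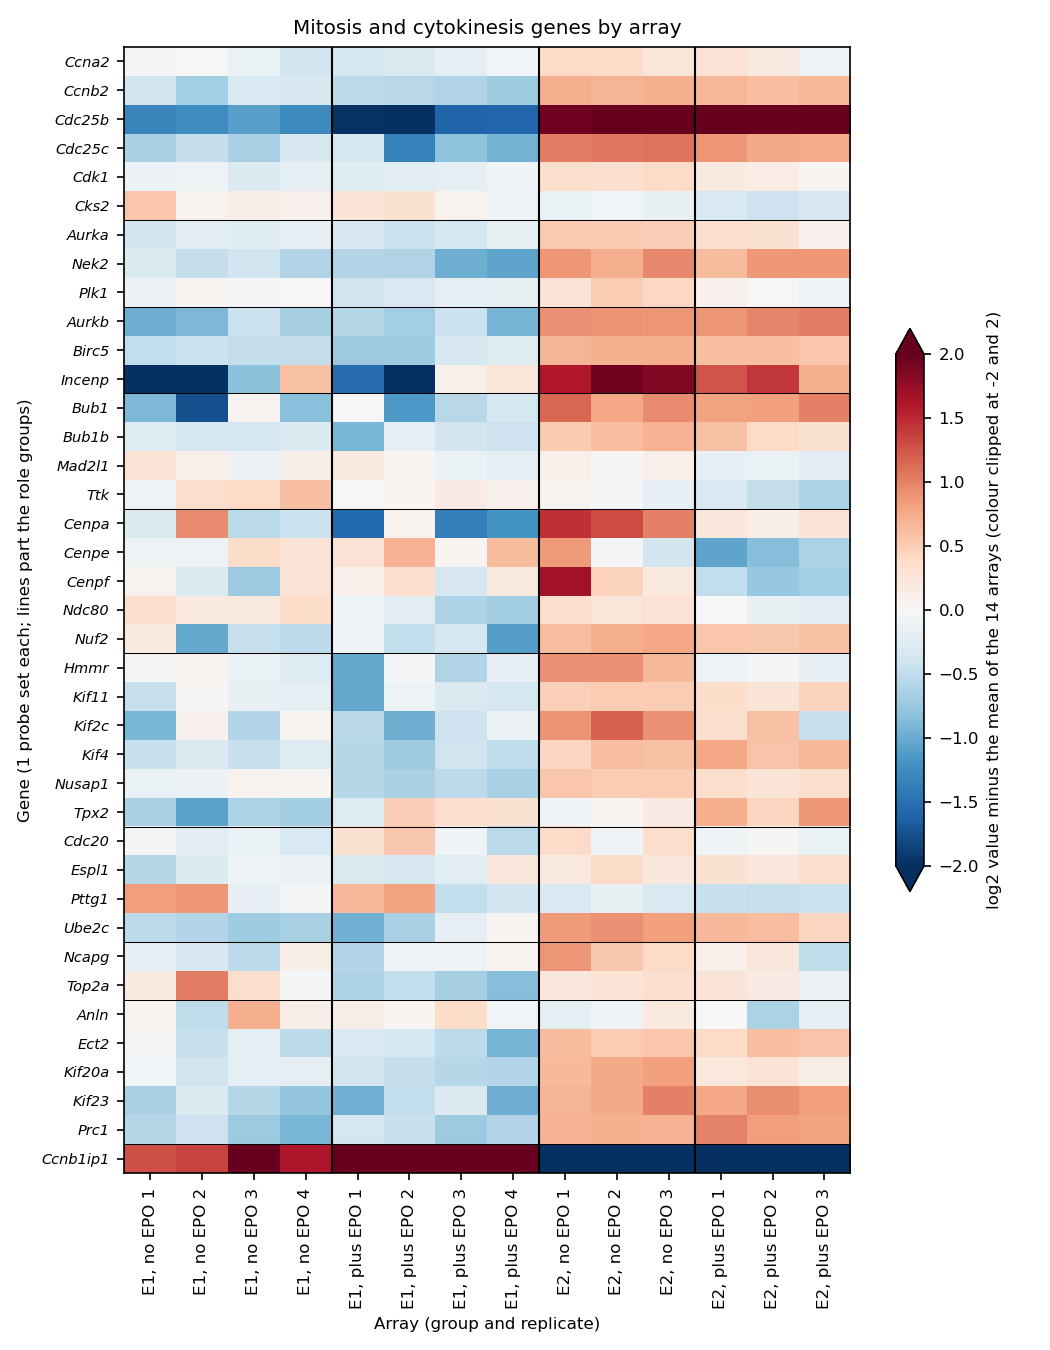
Log2 value of each of the 39 genes (rows, 1 probe set per gene, grouped by role) in each of the 14 arrays (columns), shown as the difference from that gene's mean over the 14 arrays, with the colour clipped at -2 and 2. Most rows are lower in the 8 stage E1 arrays and higher in the 6 stage E2 arrays, with Ccnb1ip1 in the last row the other way round.

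Across the 39 genes, the median value stood lowest in EPO-challenged stage E1 and highest in unchallenged stage E2. It was -0.47, -0.42, -0.47 and -0.34 in the 4 unchallenged E1 arrays and -0.66, -0.48, -0.61 and -0.57 in the 4 EPO-challenged E1 arrays. It was 0.24, 0.17 and 0.23 in unchallenged E2 and 0.05, 0.03 and -0.02 in EPO-challenged E2. The E1 and E2 arrays did not overlap in this median, nor did the challenged and unchallenged arrays within either stage. The members varied more between replicates than the array as a whole, with a median SD of 0.17 in unchallenged E1 and 0.19 in challenged E1 against 0.09 and 0.07 over all probe sets, and 0.07 and 0.09 in E2 against 0.03 and 0.03.

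**Figure D2:**
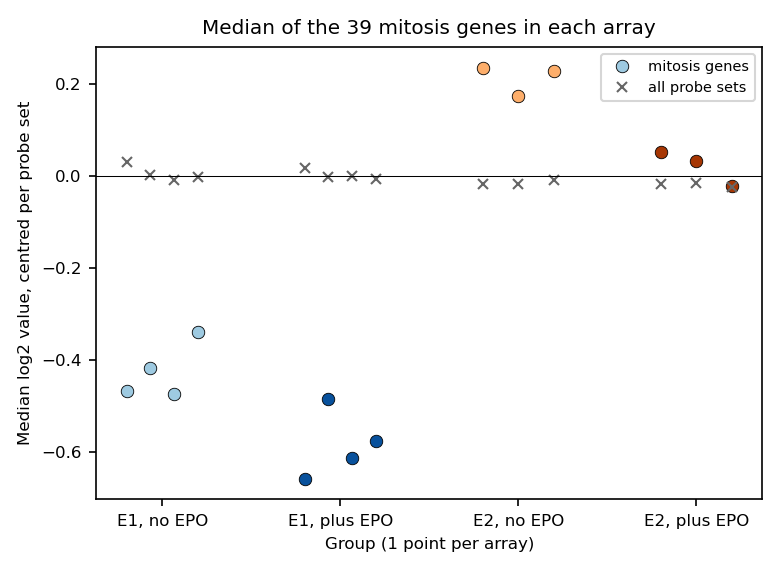
Median log2 value of the 39 mitosis genes (circles, 1 point per array) and of all probe sets (crosses) in the 4 groups. The circles run from -0.66 to -0.34 in stage E1 and from -0.02 to 0.24 in stage E2, while the crosses stay between -0.02 and 0.03.

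The comparison of the stages asked how the mitotic program differs between earlier and later progenitors. Without EPO, 28 of the 39 genes were higher in stage E2 than in stage E1, 1 (Ccnb1ip1) was lower and 10 did not pass (limma, adjusted p under 0.05, joint fit of the 14 arrays). Over all genes with 1 probe set each, 13.4% were higher and 13.8% lower. Of the 84 probe sets, 46 were higher and 2 lower, where 10.1% and 10.8% of all probe sets were. The median difference of the 39 genes was 0.85 on the log2 scale, and that of all genes was -0.03. The 28 take in Bub1b by its most variable probe set, although its other probe sets lay on the lower side. With the probe sets of each gene averaged, the median was 0.56 and 11 genes that had passed moved by over 1.5 times, among them Incenp (to 1.18), Bub1 (0.94), Kif2c (0.58) and Aurka (0.42). Culture day, Kit selection and the marker differences given above move with this comparison, and their part was not tested.

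Among the cyclins, CDK1 and its switches, 5 of 6 measured genes were higher in unchallenged E2, and the gene of the CDC25B phosphatase differed most of the 28. Cdc25b (probe set 1421963_a_at) read -3.36, -3.28, -3.12 and -3.29 in unchallenged E1 and -4.01, -4.50, -3.64 and -3.63 in challenged E1. It read -0.10, -0.02 and 0.13 in unchallenged E2 and 0.07, 0.02 and 0.20 in challenged E2. All E2 arrays lay above all E1 arrays, by 3.27 ± 0.18 (log2 difference ± SE) without EPO, a 9.65-fold difference (adjusted p = 3.19e-07). Ccnb2 (1450920_at), encoding cyclin B2, read -0.87, -1.19, -0.81 and -0.83 in unchallenged E1 and -1.03, -1.05, -1.10 and -1.21 in challenged E1. In E2 it read 0.22, 0.17 and 0.23 without EPO and 0.16, 0.09 and 0.16 with it. The stages were again separate, and the difference without EPO was 1.13 ± 0.08 (2.19-fold, adjusted p = 2.07e-06). Cdc25c, whose product is another phosphatase acting on CDK1, was higher by 1.58, Cdk1 itself by 0.52 and Ccna2, the gene of cyclin A2, by 0.45. Cks2, a small CDK-binding subunit, differed by -0.33 and did not pass (adjusted p = 0.0786). For Ccna2, the adjusted p rose to 0.0548 and 0.0555 without unchallenged E2 replicate 1 or 2.

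The 3 mitotic kinases of entry and the spindle poles were all higher in unchallenged E2. Aurka (1424511_at), the kinase of centrosome maturation, read -0.46, -0.33, -0.34 and -0.27 in unchallenged E1, and 0.43, 0.43 and 0.40 in unchallenged E2. After EPO it read -0.42, -0.52, -0.45 and -0.24 in E1 and 0.22, 0.21 and -0.01 in E2. The stages did not overlap, and the difference without EPO was 0.77 ± 0.07 (1.70-fold, adjusted p = 1.99e-05). Nek2 (1443999_at), a kinase that helps to part the centrosomes, read -0.95, -1.16, -1.07 and -1.28 in unchallenged E1 and 0.18, 0.04 and 0.28 in unchallenged E2. Its challenged arrays read -1.27, -1.28, -1.67 and -1.74 in E1 and -0.05, 0.18 and 0.19 in E2. Each E2 array lay over each E1 array, by 1.28 ± 0.13 without EPO (2.43-fold, adjusted p = 2.99e-05). Plk1, which drives entry and centrosome maturation, was higher by 0.42 (adjusted p = 0.00166).

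The 3 genes of the chromosomal passenger complex, which corrects faulty kinetochore attachments and later acts in cytokinesis, were higher too. Aurkb (1451246_s_at), its kinase, read -1.39, -1.31, -0.85 and -1.08 in unchallenged E1, and 0.50, 0.49 and 0.46 in unchallenged E2. With EPO it read -0.99, -1.10, -0.85 and -1.35 in E1, and 0.46, 0.56 and 0.60 in E2. There was no overlap between the stages, and the difference without EPO was 1.64 ± 0.13 (3.12-fold, adjusted p = 5.36e-06). Birc5 (1424278_a_at), encoding survivin, read -0.77, -0.71, -0.77 and -0.76 in unchallenged E1 and 0.39, 0.43 and 0.44 in unchallenged E2. It read -1.003, -0.987, -0.611 and -0.527 in challenged E1 and 0.32, 0.32 and 0.27 in challenged E2. Its difference without EPO was 1.17 ± 0.10 (2.25-fold, adjusted p = 9.02e-06), with all E2 arrays on the upper side. Incenp, the scaffold of the complex, was higher by 3.04 ± 0.81, and its E1 arrays spread widely, from -3.88 to -0.61 without EPO. Of its 5 probe sets 4 were higher. Its adjusted p of 0.0205 rose to 0.0504 in a fit of these 7 arrays alone, to 0.0526 without unchallenged E1 replicate 2, and to 0.0532, 0.0689 and 0.0631 without unchallenged E2 replicate 1, 2 or 3.

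In the spindle checkpoint, Bub1 was higher by 1 of its 2 probe sets (the other differed by 0.07) and Bub1b by 1 of its 3. Bub1 (1438571_at), a checkpoint kinase, read -1.70, -2.56, -0.76 and -1.64 in unchallenged E1, and 0.34, -0.04 and 0.14 in unchallenged E2. Its challenged arrays read -0.80, -1.96, -1.36 and -1.16 in E1, and -0.01, 0.01 and 0.21 in E2. The E2 arrays were all above the E1 arrays, by 1.81 ± 0.36 without EPO (3.51-fold, adjusted p = 0.00365). Bub1b, encoding BUBR1 of the mitotic checkpoint complex, gave probe sets that disagreed. Its probe set 1447362_at read -0.58, -0.70, -0.69 and -0.62 in unchallenged E1 and 0.17, 0.27 and 0.35 in unchallenged E2. It read -1.25, -0.54, -0.71 and -0.76 in challenged E1 and 0.25, 0.05 and -0.04 in challenged E2, and was higher in E2 by 0.91 ± 0.14 without EPO (adjusted p = 0.000577). Its probe set 1447363_s_at was lower in E2, with a difference of -0.51 ± 0.12 (adjusted p = 0.00974), and the remaining one, 1416961_at, differed by -0.41 (adjusted p = 0.0542). The mean of the 3 differed by -0.0033, so no single direction can be given for Bub1b. Ttk, the kinase MPS1 that sets off the checkpoint, differed by -0.36 and Mad2l1, encoding MAD2, by -0.02, and neither passed.

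Of the 5 centromere and kinetochore genes, 2 were higher. Nuf2 (1430811_a_at), a subunit of the microtubule-binding NDC80 complex, read -0.35, -1.57, -1.01 and -1.07 in unchallenged E1, and 0.06, 0.17 and 0.22 in unchallenged E2. The challenged arrays read -0.62, -1.05, -0.90 and -1.65 in E1, and 0.01, -0.01 and 0.04 in E2. All E2 arrays exceeded all E1 arrays, and the difference without EPO was 1.15 ± 0.27 (2.22-fold, adjusted p = 0.00919). Cenpa (1444416_at), the histone H3 variant that marks centromeres, read -0.81, 0.43, -1.05 and -0.95 in unchallenged E1, and 0.94, 0.78 and 0.49 in unchallenged E2. Its challenged arrays read -2.07, -0.45, -1.88 and -1.72 in E1, and -0.30, -0.38 and -0.25 in E2. Unchallenged E1 replicate 2 stood apart from the other 3, yet below all unchallenged E2 arrays, and the difference was 1.34 ± 0.41 (2.52-fold, adjusted p = 0.0406). The call did not hold in a fit of these 7 arrays alone (adjusted p = 0.0736). It also ended in 11 of 14 fits that each left out 1 array, with an adjusted p of up to 0.132 without unchallenged E2 replicate 1, and was kept without unchallenged E1 replicate 2. Ndc80, the subunit that pairs with NUF2, differed by 0.02, the kinetochore motor gene Cenpe by 0.05 and Cenpf by 0.95 (adjusted p = 0.0714), none of which passed. For Cenpf this holds for its most variable probe set, while 1 of its 3 probe sets was higher.

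All 6 genes of spindle motors and microtubule binders were higher in unchallenged E2, though Tpx2 was not after quantile normalization. Kif4 (1450692_at), encoding a chromosome-bound kinesin, read -0.94, -0.80, -0.94 and -0.76 in unchallenged E1, and -0.07, 0.11 and 0.08 in unchallenged E2. After EPO it read -1.07, -1.21, -0.90 and -1.01 in E1, and 0.27, 0.07 and 0.16 in E2. The stages were apart by 0.90 ± 0.08 without EPO (1.87-fold, adjusted p = 9.18e-06). Nusap1 (1416309_at), encoding a protein that bundles spindle microtubules, read -0.47, -0.45, -0.26 and -0.28 in unchallenged E1, and 0.23, 0.17 and 0.18 in unchallenged E2. Its challenged arrays read -0.90, -0.98, -0.85 and -0.98 in E1, and 0.02, -0.08 and -0.02 in E2. The 4 groups of Nusap1 did not overlap at all, and the stage difference without EPO was 0.55 ± 0.06 (1.47-fold, adjusted p = 3.10e-05). Kif2c, a kinesin that takes microtubules apart, was higher by 1.34, Hmmr by 0.91, Tpx2, the activator of Aurora A, by 0.80 and Kif11, the motor that pushes the poles apart, by 0.69. After quantile normalization the difference of Tpx2 was 0.08 and did not pass (adjusted p = 0.798), and 2 of its 4 probe sets passed in the values as deposited. Kif11 lost its call without unchallenged E1 replicate 1 (adjusted p = 0.0509) and without unchallenged E2 replicate 1, 2 or 3 (0.0564, 0.0632 and 0.0611).

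Among the genes of anaphase and mitotic exit, 2 of 4 were higher. Ube2c (1452954_at), the ubiquitin-conjugating enzyme of the APC/C, read -1.18, -1.22, -1.35 and -1.28 in unchallenged E1, and 0.21, 0.28 and 0.19 in unchallenged E2. With EPO it read -1.59, -1.29, -0.83 and -0.60 in E1, and 0.01, -0.01 and -0.21 in E2. The stages did not overlap and lay 1.49 ± 0.19 apart without EPO (2.80-fold, adjusted p = 0.000147). Espl1 (1433862_at), encoding the protease separase that cuts cohesin, read -0.72, -0.42, -0.23 and -0.27 in unchallenged E1, and 0.04, 0.22 and 0.08 in unchallenged E2. Its challenged arrays read -0.43, -0.48, -0.38 and 0.08 in E1, and 0.16, 0.08 and 0.20 in E2. Its difference of 0.52 ± 0.14 (1.44-fold, adjusted p = 0.0215) did not pass without unchallenged E2 replicate 2 or 3 (0.0899 and 0.0554). Cdc20, the APC/C activator, differed by 0.40 and Pttg1, the separase inhibitor securin, by -0.63, and neither passed. Pttg1 (1438390_s_at) read 0.52, 0.56, -0.47 and -0.34 in unchallenged E1 and 0.34, 0.49, -0.81 and -0.70 in challenged E1. In both groups replicates 1 and 2 lay above replicates 3 and 4, and the cause was not tested.

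Of the pair of chromosome structure genes, Ncapg was higher and Top2a did not pass. Ncapg (1429172_a_at), a condensin subunit, read -0.23, -0.39, -0.59 and 0.04 in unchallenged E1, and 0.81, 0.47 and 0.32 in unchallenged E2. With EPO it read -0.66, -0.17, -0.17 and -0.03 in E1, and 0.03, 0.16 and -0.59 in E2. The unchallenged stages did not overlap while the challenged ones did, and the difference without EPO was 0.83 ± 0.22 (1.78-fold, adjusted p = 0.0189, or 0.0901 without unchallenged E2 replicate 1). Top2a (1442454_at), the topoisomerase that untangles sister chromatids, read -0.02, 0.83, 0.15 and -0.24 in unchallenged E1, and 0.02, 0.08 and 0.13 in unchallenged E2. It read -0.82, -0.70, -0.87 and -1.06 in challenged E1, and 0.06, -0.04 and -0.32 in challenged E2. The unchallenged stages overlapped and differed by -0.10 ± 0.21 (95% confidence interval -0.55 to 0.35).

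In cytokinesis, 4 of 5 genes were higher in unchallenged E2. Prc1 (1423774_a_at), which bundles the central spindle, read -1.28, -1.12, -1.44 and -1.62 in unchallenged E1, and -0.01, 0.01 and -0.01 in unchallenged E2. Its challenged arrays read -1.06, -1.15, -1.43 and -1.29 in E1, and 0.29, 0.14 and 0.10 in E2. All E2 arrays lay above all E1 arrays, by 1.36 ± 0.11 without EPO (2.57-fold, adjusted p = 7.11e-06). Kif20a (1449207_a_at), encoding the kinesin MKLP2 that moves the passenger complex to the midzone, read 0.11, -0.23, -0.03 and -0.02 in unchallenged E1, and 0.81, 0.92 and 0.98 in unchallenged E2. With EPO it read -0.22, -0.31, -0.41 and -0.43 in E1, and 0.37, 0.43 and 0.29 in E2. Its stages were separate, with a difference of 0.95 ± 0.08 without EPO (1.93-fold, adjusted p = 5.94e-06). Kif23, the kinesin of centralspindlin, was higher by 1.39 and Ect2 by 0.85. Anln, encoding the ring protein anillin, differed by -0.13 and did not pass, although the other of its probe sets was higher by 0.50.

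Ccnb1ip1 moved against most members, and further than any other that was lower in E2. Of the 39 genes, 7 were below 0 without EPO and 9 with it, Ccnb1ip1 among them. Ccnb1ip1 encodes a ubiquitin ligase named for binding cyclin B1 and is best known for its part in meiotic crossing over. Its single probe set (1435998_at) read 4.34, 4.40, 5.06 and 4.67 in unchallenged E1 and 5.98, 6.37, 6.23 and 6.12 in challenged E1. In E2 it read -0.08, -0.09 and -0.08 without EPO and -0.05, -0.09 and -0.09 with it. It was lower in E2, with a log2 difference of -4.70 ± 0.15 without EPO (26.0-fold, adjusted p = 6.99e-09) and of -6.25 ± 0.15 with EPO (76.3-fold, adjusted p = 7.98e-10). Whether the near-equal E2 values lie at the floor of the measurement cannot be read from centred values.

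**Figure D3:**
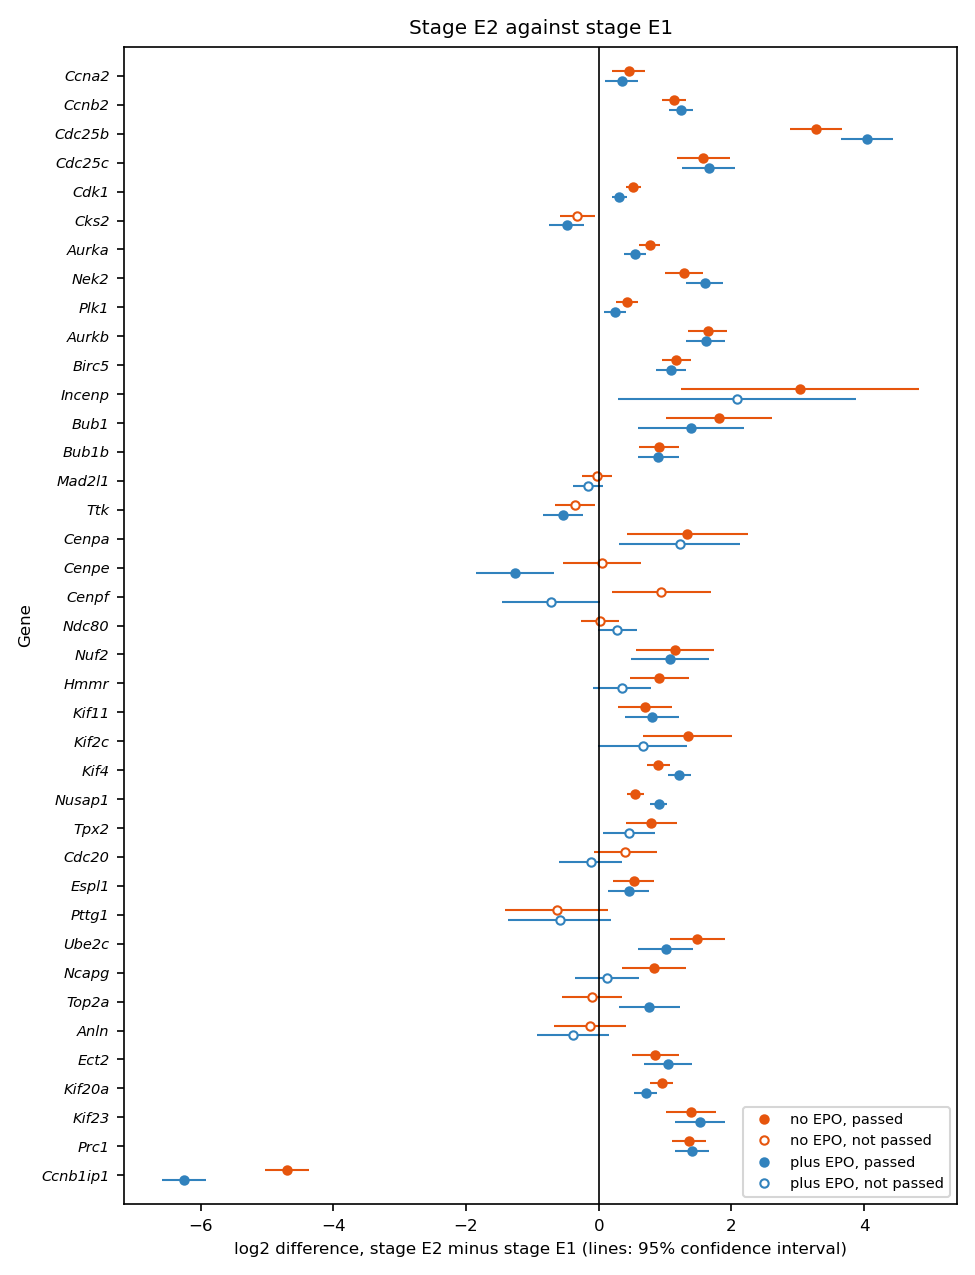
Log2 difference of stage E2 minus stage E1 for each of the 39 genes, without EPO (orange) and with EPO (blue), with lines for the 95% confidence interval and filled circles for genes that passed. Without EPO 28 genes lie to the right as filled circles, with EPO 23 do, and Ccnb1ip1 stands alone at -4.70 and -6.25.

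With EPO in both stages, which uses the other 7 arrays, 23 of the 39 genes were higher in E2, 4 were lower and 12 did not pass, where 13.2% of all genes were higher and 15% lower. Of the 84 probe sets, 42 were higher and 7 lower, against 10.3% and 12% of all. Of the 28 genes higher without EPO, 22 (78.6%) were also higher with EPO, and these were 95.7% of the 23. The median difference of the 39 genes was 0.71. Of the genes that passed, Cdc25b (4.04), Cdc25c (1.66), Aurkb (1.61), Nek2 (1.59), Kif23 (1.53) and Prc1 (1.41) differed most. Incenp differed by 2.09 ± 0.81 and did not pass (adjusted p = 0.0939), although 2 of its other probe sets were higher. Bub1b is again counted as higher by 1 probe set (0.90), while its other 2 were lower, down to -0.74, and the mean of the 3 was -0.11, so it has no single direction here either. Besides Ccnb1ip1, the genes lower in challenged E2 were Cenpe (-1.26, adjusted p = 0.00503), Ttk (-0.54, adjusted p = 0.0154) and Cks2 (-0.48, adjusted p = 0.0121). Cenpe read 0.25, 0.66, -0.00 and 0.59 in challenged E1 and -1.10, -0.89 and -0.68 in challenged E2, with no overlap, while without EPO its stages overlapped. The other Cenpe probe set differed by 0.19 and did not pass, and the mean of the pair differed by -0.54 (adjusted p = 0.024). Cenpf differed by -0.72 in its most variable probe set, which did not pass, while 1 of its 3 probe sets was higher. Cks2 did not pass without challenged E2 replicate 2 (adjusted p = 0.0508) and Ttk without challenged E2 replicate 3 (0.0757). The other Ttk probe set differed by 0.08, and the mean of the pair by -0.23 (adjusted p = 0.192), which ended the call, as the replicate block did (0.0559). Top2a was higher here by 0.76 (adjusted p = 0.0198, and 0.0506, 0.083 and 0.0681 without challenged E1 replicate 4 and challenged E2 replicate 1 or 2). After quantile normalization Top2a differed by 0.41 and did not pass (adjusted p = 0.23). Its 3 probe sets differed by -0.03 to 0.76 and only 1 passed, while their mean differed by 0.27 (adjusted p = 0.0327). The weakest calls were Ccna2 at 0.34 and Espl1 at 0.45, each lost in 10 of 14 fits without 1 array, with an adjusted p of up to 0.192 and 0.129. Plk1 at 0.25 was lost in 4 (up to 0.137), and Bub1 at 1.39 only without challenged E2 replicate 3 (0.0623). In a fit of the 7 challenged arrays alone, Ccna2 (0.0804), Espl1 (0.081), Plk1 (0.0741) and Kif11 (0.0578) did not pass. Of the marker lists, 8 of 14 neutrophil and 4 of 8 mast cell genes were again lower in E2.

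The EPO comparisons share arrays with the stage comparisons, so their values stand side by side and were not related to each other. They asked which of these genes changed within 90 min of the hormone. In stage E1, 1 of the 84 probe sets rose and 1 fell, Ccnb1ip1 and Nusap1, where 0.804% of all probe sets rose and 0.36% fell (limma, 4 against 4 arrays, unpaired). Ccnb1ip1 rose by 1.56 ± 0.17 (2.94-fold, adjusted p = 0.0125), with all 4 challenged arrays above all 4 unchallenged ones in the values given above. Nusap1 fell by 0.57 ± 0.06 on the log2 scale (1.48-fold, adjusted p = 0.0123), again without overlap. Its other probe set, 1416310_at, differed by -0.24 and did not pass, and the mean of the pair differed by -0.40 and did not pass either (adjusted p = 0.0703). When replicate number entered the fit as a block, the adjusted p became 0.0882 for Ccnb1ip1 and 0.0845 for Nusap1, so neither call held, and after quantile normalization that of Ccnb1ip1 was 0.0629. Without challenged E1 replicate 3, Ccnb1ip1 differed by 1.54 at an adjusted p of 0.0567 and the count of members that rose was 0. Nusap1 kept an adjusted p of at most 0.0444 whichever array was left out. Without challenged E1 replicate 1, 2 member probe sets rose and 3 fell.

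The other members lay mostly a little below 0 in stage E1. Of the 84 probe sets 59 (70.2%) had a negative difference, where 61% of all probe sets did, and 51 of the 73 members among the 22518 most variable probe sets did, where 49.5% did. At an unadjusted p under 0.05, 20 members fell (23.8%, all probe sets 3.82%) and 3 rose (3.57%, all 5.02%). The median difference of the 39 genes was -0.11, and that of all genes -0.0048. Top2a differed by -1.04 ± 0.23 (adjusted p = 0.121), Ndc80 by -0.68 ± 0.15 (0.114), Cdc25b by -0.68 ± 0.20 (0.269) and Plk1 by -0.23 ± 0.06 (0.245), each with all challenged arrays below all unchallenged ones. For Top2a this was its most variable probe set, and its 3 probe sets differed by -1.04 to 0.01. Ndc80 (1417445_at) read 0.30, 0.14, 0.14 and 0.31 in unchallenged E1, and -0.15, -0.27, -0.67 and -0.76 in challenged E1. Groups that did not overlap were seen for 10 members on the lower side (all probe sets 2.3%) and 2 on the upper side (3.28%). One of the 2 was Tpx2 (1428105_at), which read -0.96, -1.38, -0.92 and -1.01 without EPO and -0.57, 0.17, 0.02 and -0.02 with it. It differed by 0.97 ± 0.18 (adjusted p = 0.0766), counter to most members. The 4 Tpx2 probe sets differed by -0.06 to 0.97. By role, all 6 genes of cyclins, CDK1 and its switches and all 3 mitotic kinases had negative differences, with medians of -0.14 and -0.23, while 3 of the 4 genes of anaphase and mitotic exit were positive, with a median of 0.14. No marker of neutrophils (0 of 14), mast cells (0 of 8), monocytes (0 of 10) or megakaryocytes (0 of 8) passed with EPO in E1.

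In stage E2, 9 of the 84 probe sets, belonging to 8 genes, fell with EPO and 0 rose, where 2.08% of all probe sets fell and 2.54% rose (limma, 3 against 3 arrays). These counts depend on the arrays fitted. With all 14 arrays in 1 fit, as used for the stages and the interaction, 2 member probe sets fell in E2 and 7 in E1, and of the 6 E2 genes named below only Kif20a passed. At an unadjusted p under 0.05, 39 fell (46.4%, all probe sets 8.66%) and 4 rose (4.76%, all 7.81%). The methods' t-test (1-tailed, unadjusted) put those counts at 42 and 4. Shares of all probe sets were not taken for this t-test or for the fit of all 14 arrays. Challenged and unchallenged arrays did not overlap for 43 members on the lower side (51.2%, all probe sets 13.7%) and for 4 on the upper side (all 9.42%). In all, 71 (84.5%) had a negative difference, where 63% of all probe sets did. With 1 probe set per gene, 6 of the 39 genes fell and 0 rose, where 2.42% and 3.19% of all genes did. The median difference of the 39 genes was -0.22, and that of all genes was -0.0054. Of the 59 probe sets negative in E1, 53 (89.8%) were negative in E2 as well, or 74.6% of the 71. That 89.8% is near the 84.5% of all members negative in E2, so it does not show agreement between the stages. The share of all probe sets negative in both stages was not taken.

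**Figure D4:**
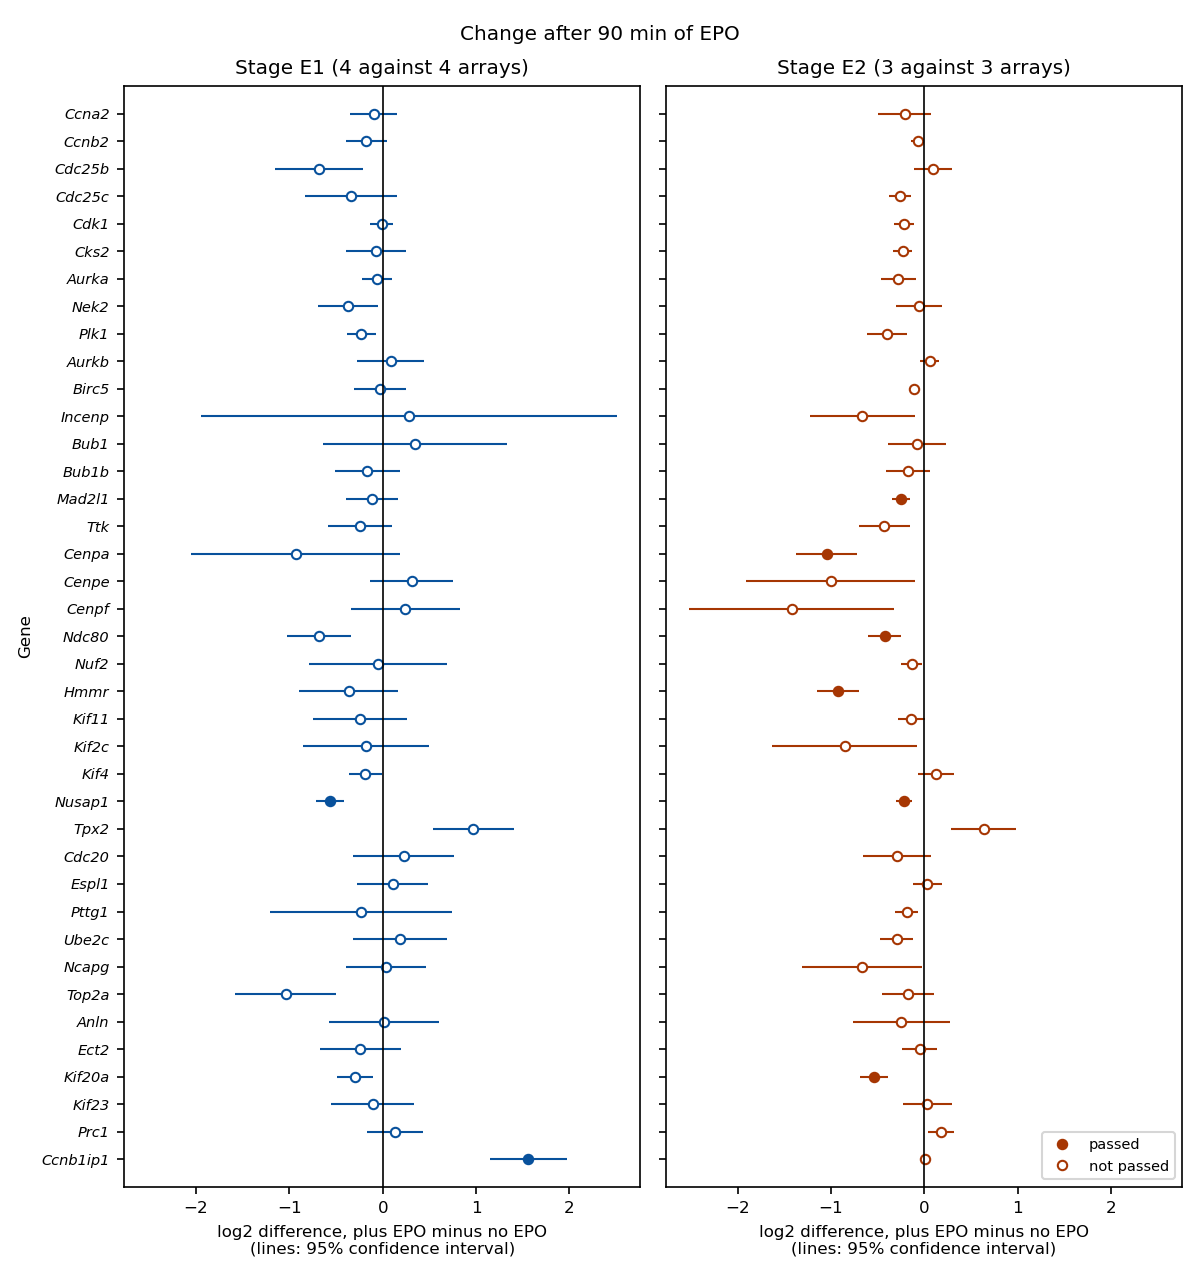
Log2 difference of EPO-challenged minus unchallenged arrays for each of the 39 genes in stage E1 (left, 4 against 4 arrays) and stage E2 (right, 3 against 3 arrays), with lines for the 95% confidence interval. Filled circles mark genes that passed, which are Ccnb1ip1 and Nusap1 in E1 and Cenpa, Hmmr, Kif20a, Ndc80, Mad2l1 and Nusap1 in E2, all 6 of the latter below 0.

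The genes that fell in stage E2 came from the kinetochore, the checkpoint, the spindle, the APC/C and the midzone. Cenpa fell by 1.05 ± 0.13 (2.07-fold, adjusted p = 0.0218), with its challenged E2 arrays between -0.38 and -0.25 and its unchallenged ones between 0.49 and 0.94. The other 2 Cenpa probe sets differed by -0.17 and -0.0033 and did not pass, and the mean of the 3 fell by 0.41 (adjusted p = 0.00987). Ndc80, which read 0.30, 0.19 and 0.24 in unchallenged E2 and -0.05, -0.21 and -0.28 in challenged E2, fell by 0.42 ± 0.07 (1.34-fold, adjusted p = 0.045). That call was lost after quantile normalization, where the difference was -0.77 (adjusted p = 0.0956), with array weights (0.0575), in the methods' t-test after adjustment (0.0546) and in the fit of all 14 arrays (0.23). Cenpf differed by more, -1.42 ± 0.42, but did not pass (adjusted p = 0.183), nor did Cenpe (95% confidence interval -1.91 to -0.10, adjusted p = 0.251), although neither gene had overlapping groups. Cenpf (1458447_at) read 1.44, 0.23 and -0.04 in unchallenged E2 and -0.73, -0.99 and -0.91 in challenged E2, so that 1 unchallenged array stood high. The 3 Cenpf probe sets differed by -1.42 to -0.0036. Nuf2 differed by -0.14, and all 5 genes of this group were negative.

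Mad2l1 (1422460_at), whose product holds CDC20 inactive while kinetochores are unattached, read 0.24, 0.16 and 0.23 in unchallenged E2 and -0.03, 0.00 and -0.10 in challenged E2. It fell by 0.25 ± 0.04 (1.19-fold, adjusted p = 0.0331). In stage E1 its arrays overlapped, reading 0.42, 0.24, 0.01 and 0.25 without EPO and 0.33, 0.19, -0.00 and -0.06 with it. Ttk differed by -0.43 without overlap (adjusted p = 0.121), Bub1b by -0.18 and Bub1 by -0.08. All 4 checkpoint genes were negative and 1 passed.

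Hmmr (1429871_at), encoding a hyaluronan receptor that also binds spindle microtubules, read 0.95, 0.95 and 0.69 in unchallenged E2, and -0.06, -0.01 and -0.12 in challenged E2. It fell by 0.93 ± 0.09 (1.90-fold, adjusted p = 0.0116). The other 4 Hmmr probe sets differed by -0.10 to -0.52 and did not pass, and the mean of the 5 differed by -0.40 (adjusted p = 0.054). In stage E1 this probe set read 0.01, 0.11, -0.10 and -0.22 without EPO and -0.99, 0.01, -0.57 and -0.12 with it, which overlapped. Nusap1 fell by 0.22 ± 0.03 (1.16-fold, adjusted p = 0.0351), as its E2 values given above show, and its probe set 1416309_at passed in both stages. With its probe sets averaged it passed in neither (adjusted p = 0.47 in E2). Among the Kif2c probe sets, 1437611_x_at read 0.53, 0.47 and 0.61 in unchallenged E2 and 0.10, 0.23 and 0.15 in challenged E2 and fell by 0.37 ± 0.05 (adjusted p = 0.0284), while the most variable one differed by -0.85 (adjusted p = 0.255). Probe sets with the ending x_at can share probes with other transcripts. Tpx2 was again on the other side by its most variable probe set. It read -0.39, -0.28 and -0.15 in unchallenged E2 and 0.42, 0.11 and 0.55 in challenged E2, a difference of 0.64 ± 0.13 without overlap (adjusted p = 0.0846). The 4 Tpx2 probe sets differed by -0.11 to 0.64.

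Cdc20, the target of the checkpoint and partner of the APC/C, fell by 2 of its 3 probe sets. Probe set 1416664_at read 0.35, 0.34 and 0.35 in unchallenged E2 and 0.01, -0.01 and -0.22 in challenged E2, a fall of 0.42 ± 0.07 (adjusted p = 0.0429). Probe set 1439377_x_at fell by 0.23 ± 0.04 (adjusted p = 0.0459), and the most variable one differed by -0.29 (adjusted p = 0.432). Ube2c differed by -0.30 and Pttg1 by -0.19, both without overlap between the groups and neither past the test. Kif20a was the 1 cytokinesis gene of 5 that fell, by 0.54 ± 0.06 (1.45-fold, adjusted p = 0.0163), while Prc1 differed by 0.18 (adjusted p = 0.192), Kif23 by 0.03, Ect2 by -0.05 and Anln by -0.25.

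None of the 6 cyclin and CDK1 genes passed with EPO in E2, yet 5 were negative. Cdc25c differed by -0.26 ± 0.04 (adjusted p = 0.0502), Cks2 by -0.23 ± 0.04 (0.0517), Cdk1 by -0.22 ± 0.04 (0.065) and Ccnb2 by -0.07 ± 0.03 (0.297), each with all challenged arrays below all unchallenged ones. Birc5 of the passenger complex differed by -0.12 ± 0.02 (0.0541) and Plk1 by -0.40 ± 0.08 (0.077). Incenp (-0.66) and Ncapg (-0.67) differed by more and with wider spread (adjusted p = 0.219 and 0.284). Of the marker lists of neutrophils, mast cells, monocytes and megakaryocytes, 0 genes passed with EPO in E2.

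The E2 calls rested on 3 arrays a group, and other fits ended many of them. With all 14 arrays fitted together, the adjusted p was 0.445 for Cenpa, 0.486 for Mad2l1, 0.123 for Nusap1 and 0.0539 for Hmmr, and with the trend and robust options it was 0.0729 for Mad2l1 and 0.0919 for Nusap1. After quantile normalization the falls of the 6 genes were larger, from 0.35 for Nusap1 to 1.93 for Cenpa. When 1 array was left out, the number of genes that fell lay between 0, without unchallenged E2 replicate 2, and 3, and that of probe sets between 1 and 5. Mad2l1 and Nusap1 did not pass in any of the 6 such fits (adjusted p up to 0.109 for both), Ndc80 passed only without challenged replicate 1 (up to 0.134 in the others), and Cenpa only without unchallenged replicate 1 or 3 (up to 0.0923). Kif20a did not pass without unchallenged replicate 2 or 3 or challenged replicate 1 (0.0755, 0.0502 and 0.0647), and Hmmr not without unchallenged replicate 2 or challenged replicate 1 (0.0517 and 0.0513). When arrays were left out, the differences themselves moved little, for example from -0.88 to -1.01 for Hmmr, and the median of the 39 genes stayed between -0.25 and -0.20.

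**Figure D5:**
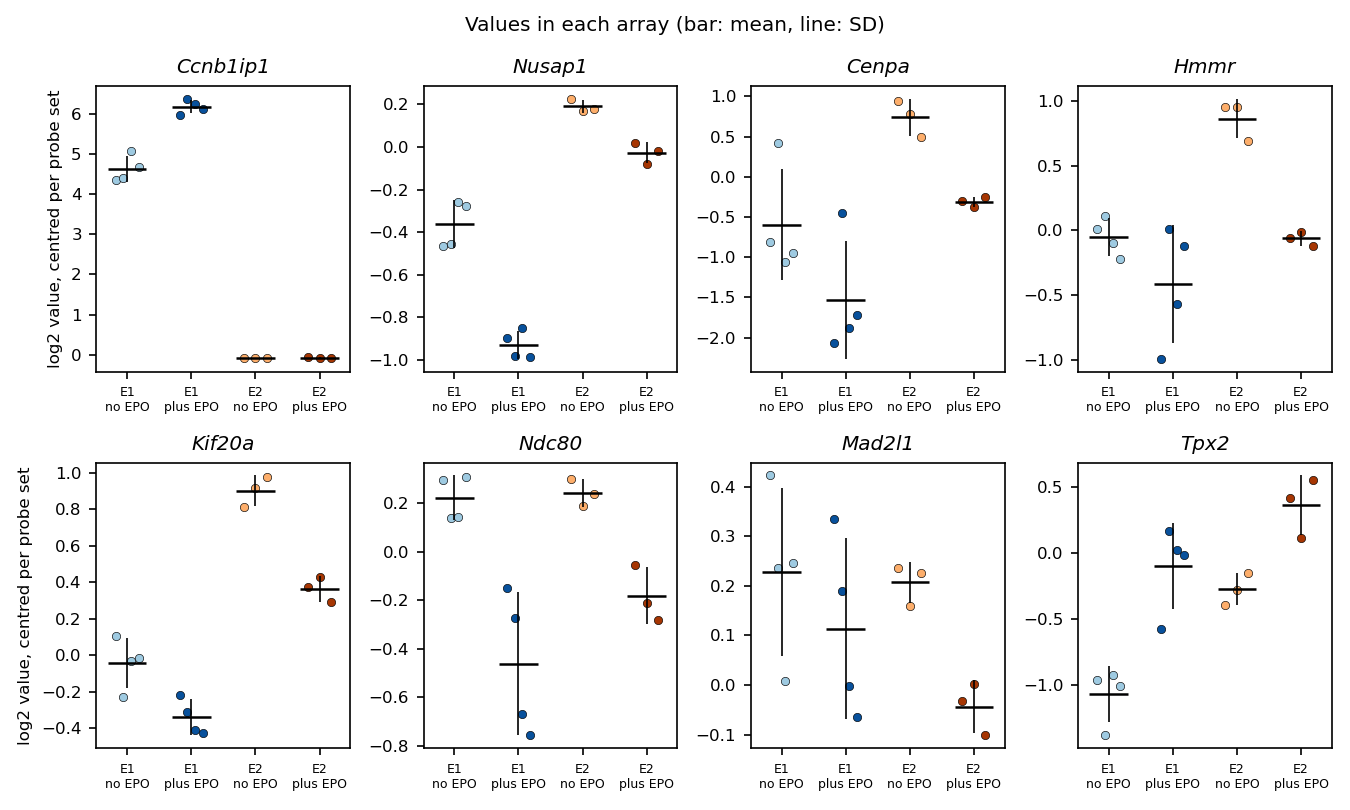
Log2 value, centred per probe set, in each array for 8 genes, each by its most variable probe set, with a bar for the mean and a line for the SD of each of the 4 groups. In stage E2 the challenged arrays of Nusap1, Cenpa, Hmmr, Kif20a, Ndc80 and Mad2l1 lie below the unchallenged ones and those of Tpx2 above, and Ccnb1ip1 is high in stage E1 alone, between 4.34 and 6.37.

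Whether EPO acted differently in the stages was tested as an interaction. The change in E2 was below that in E1 for 1 of the 84 probe sets and above it for 0, where 0.235% and 0.18% of all probe sets were. That gene was Ccnb1ip1, whose change differed by -1.55 ± 0.21 (adjusted p = 0.0126), since it rose in E1 and differed by 0.00 in E2 (95% confidence interval -0.03 to 0.04). As its 6 E2 values, all between -0.09 and -0.05, may lie at the floor of the measurement, where no change in E2 could be seen, this call does not show that the response to EPO differed between the stages. With the replicate block its adjusted p was 0.0778. For Nusap1 the interaction was 0.35 ± 0.08 (adjusted p = 0.127), for Cenpf -1.66 ± 0.48 (0.266), for Cenpe -1.31 ± 0.38 (0.275), for Top2a 0.87 ± 0.29 (0.405) and for Cdc25b 0.77 ± 0.25 (0.372). Over all probe sets of a gene it ran from -0.09 to 0.35 for Nusap1 and from -1.66 to -0.07 for Cenpf. It ran from -1.31 to 0.30 for Cenpe and from -0.01 to 0.87 for Top2a. None of the other genes that fell in E2 passed either, with interactions of -0.56 for Hmmr, -0.24 for Kif20a, 0.26 for Ndc80, -0.14 for Mad2l1 and -0.11 for Cenpa, and of -0.50 and 0.04 for the Cdc20 and Kif2c probe sets 1416664_at and 1437611_x_at. At an unadjusted p under 0.05, 8 members were below 0 and 5 above (9.52% and 5.95%, all probe sets 3.95% and 3.24%). The falls in E2 are thus not shown to differ from the changes in E1.

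Other genes of the same machinery, from lists written for this work, were read with 1 probe set each, against 13.4% of all genes higher and 13.8% lower in unchallenged E2. Of 35 further checkpoint and kinetochore genes, 22 were higher and 0 lower in unchallenged E2, with a median of 0.76, among them the kinetochore genes Cenpl (1.15) and Nsl1 (1.36). Of 43 further spindle motor and microtubule genes, 25 were higher and 6 lower (median 0.83), with the smallest p for the kinesin gene Kif18b (1.52) and Tubg1, encoding gamma-tubulin (1.44). Of 36 further G2/M regulators, 22 were higher and 2 lower (median 0.78), with Cdca8 of the passenger complex at 1.11 and the transcription factor gene Mybl2 at 2.09. Of 17 APC/C genes, 8 were higher and 2 lower (median 0.52), with the activator gene Fzr1 at 2.83, and of 19 condensin and cohesin genes, 9 and 3 (median 0.35). Of 24 further cytokinesis genes, 8 were higher and 8 lower (median 0.19), with Racgap1, the partner of KIF23, at 1.45 and the myosin gene Myh10 at -1.45. With EPO in both stages the counts of these 6 lists were 23 and 1, 25 and 7, 21 and 4, 6 and 3, 7 and 8, and 8 and 8, where 13.2% of all genes were higher and 15% lower.

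With EPO in E1, 3 genes of these 6 lists fell and 0 rose, where 0.396% of all genes fell and 1.13% rose. They were Cenpl (-0.65, adjusted p = 0.0424), Kif18b (-0.60, 0.0156) and Cdca5, which encodes the cohesin protector sororin (-0.51, 0.0284). The list medians lay between -0.15, for checkpoint and kinetochore genes, and 0.06, for APC/C genes. With EPO in E2, where 2.42% of all genes fell and 3.19% rose, 4 of the 35 checkpoint and kinetochore genes fell (Oip5 -0.57, Cenpp -0.59, Knl1 -0.88 and Cenpq -0.32) and 0 rose, with a median of -0.11. Of the 43 spindle genes 6 fell, among them the kinesin genes Kifc1 (-1.09), Kif18b (-0.37) and Kif22 (-0.33), and 0 rose (median -0.17). Of the 36 G2/M regulators 4 fell, including G2e3 (-0.86) and Bora, which encodes an activator of PLK1 (-0.56), and 1 rose (median -0.11). That 1 was Cdc25a, the phosphatase of the G1/S and G2/M steps, at 1.44 (adjusted p = 0.0129), which differed by 0.80 in E1 (adjusted p = 0.0615). Of the 19 condensin and cohesin genes 3 fell, the cohesin release factor gene Wapl (-1.35) and the condensin genes Ncapd3 (-1.11) and Ncapd2 (-0.59). Of the APC/C and cytokinesis lists 1 gene each fell, Anapc2 (-0.29) and Septin6 (-0.29), and 0 rose in any of these 3 lists. In the interaction, Wapl at -1.39 (adjusted p = 2.45e-05) and Kifc1 at -1.24 (adjusted p = 0.0137) passed, and 0 other genes of the 6 lists did (all genes 0.291% below 0 and 0.198% above).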

How the data were processed

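The authors scanned Affymetrix whole-genome mouse arrays with GCOS and processed them by GC-RMA in GeneSpring GX. The deposited values are log2 signals centred by 1 constant per probe set, since 35163 of 45101 rows (78%) hold a pair of values equal in size but opposite in sign (tolerance 2e-06). Base 2 was inferred from the method. The constant was not the median of these 14 arrays, which was 0 for 0.973% of rows, so levels cannot be read and no filter on low values could be set. Depth does not apply, and precision depends on how many arrays a group has and on the spread between them. That spread was smaller in E2, although E2 had fewer arrays (median SD over all probe sets 0.03 in both E2 groups, 0.09 and 0.07 in E1).

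After leaving out 64 control probe sets, 45037 were tested with limma 3.58.1 (lmFit and eBayes, 2-sided, Benjamini-Hochberg over all of them) in R 4.3.3. An adjusted p under 0.05 counted as passed. EPO was tested within each stage without pairing of arrays, and the stages and the interaction in 1 fit of 14 arrays. Platform annotation named 1 gene for 34945 probe sets, several for 932 and none for 9160, and only the first were named. The scripts were tested on simulated data. Motifs were searched with Python 3.11.15.

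Every member is accounted for by role. Values per array are given for members that passed with EPO or in the interaction and for the 2 members a role with the smallest p between the unchallenged stages, and at most 4 genes from each other list are named per comparison. Other members' array values were added after they were seen (Tpx2, Top2a, Cenpe, Cenpf, Pttg1 and the Cdc20 and Kif2c probe sets). Members and lists were chosen with earlier results of these data known. Probe sets ending in x_at or s_at may share sequence with other transcripts.

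Deviations of same-numbered arrays from their group means correlated in stage E1 (0.195, 0.187, 0.173 and 0.152), although unchallenged replicate 4 correlated best with challenged replicate 3 (0.203). The E1 test reported above left the arrays unpaired. The numbers paired them only in the replicate block, where no E1 call held. Alternatives were quantile normalization, median centring, the 22518 most variable probe sets, 1 value per gene, trend and robust moderation, array weights, the replicate block, other sets of arrays in the fit, the methods' t-test and leaving out each array. No scan date or batch is given in the sources used here. What set stage E1 replicates 1 and 2 apart from 3 and 4 in Pttg1 and Incenp was not tested.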

Additional observations from a re-analysis of the deposited data

Results flagged for a closer look

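In 3 of 78 gene-by-group sets of 4 arrays, 1 array stood far from the other 3, where chance alone marks about 1 set in 20. Unchallenged stage E1 replicate 2 read -1.19 for Ccnb2 against -0.87 to -0.81 in the others, and 0.43 for Cenpa against -1.05 to -0.81. Unchallenged stage E1 replicate 1 read 0.69 for Cks2 against 0.22 to 0.28. The EPO change of Ccnb1ip1 differed between the stages, by -1.55 on the log2 scale in the interaction test, while its E2 values, between -0.09 and -0.05, may lie at the floor of the measurement.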

How the results depend on the processing

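Centring each array on its median moved no count of members by over 1.5 times. After quantile normalization, 0 member probe sets (0 genes) rose with EPO in E1, the E2 median was -0.35, the interaction gave 1 above and 6 below 0 (1 and 5 genes; median -0.27), the unchallenged stage comparison had 2 genes lower and a median of 0.91, and the challenged one had 11 probe sets lower and a median of 0.62. Among the 22518 most variable probe sets, 2 members rose and 2 fell in E1 (2 and 2 genes), and 1 rose and 18 fell in E2 (1 and 12 genes). With each gene's probe sets averaged, 2 genes rose in E1 and 10 fell in E2, the stage medians were 0.56 without and 0.42 with EPO, and Bub1b turned to -0.0033 and -0.11. Trend and robust options left 4 probe sets falling in E2. Array weights gave 2 probe sets rising and 8 falling in E1 (2 and 3 genes), 2 rising in E2 (1 gene), 1 above and 2 below 0 in the interaction (1 gene above), 4 lower without EPO (3 genes) and 11 lower with EPO. All 14 arrays in 1 fit gave 2 rising and 7 falling in E1 (2 and 5 genes) and 2 falling in E2 (2 genes). The methods' t-test, unadjusted, gave 3 rising and 23 falling in E1 (2 and 8 genes) and 4 and 42 in E2 (2 and 23 genes). The share of all probe sets called was not taken under these settings, nor for the block and the left-out arrays below. A shift in the calls of the whole array therefore cannot be told apart from one in the members. The cause of these shifts was not tested.

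With the replicate block, 0 member probe sets rose or fell in E1 (0 genes), 0 fell in E2 (0 genes) and 0 differed in the interaction (0 genes). In E2 the same-numbered arrays did not deviate together (correlations of -0.06, -0.06 and -0.02), so the numbers do not pair them, and the 6 E2 genes had blocked adjusted p of 0.0501 to 0.161. Nor did numbers pair arrays across the stages (0.01 to 0.06 without EPO, -0.13 to -0.05 with it), where the block gave 2 genes lower and a median of 0.92 without EPO, and with EPO left Ccna2 (adjusted p = 0.101) and Ttk (0.0559) short of the threshold.

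Leaving out 1 array gave, in E1, 0 to 2 probe sets rising and 1 to 3 falling (0 to 2 and 1 to 1 genes; median -0.13 to -0.06), and in E2 0 to 1 rising and 1 to 5 falling (0 to 0 and 0 to 3 genes; median -0.25 to -0.20). The interaction kept 0 above and 1 below 0 (median -0.16 to -0.09). Without EPO 36 to 46 probe sets were higher and 2 to 3 lower in stage E2 (23 to 28 and 1 to 2 genes; median 0.80 to 0.87), and with EPO 35 to 43 and 4 to 8 (19 to 23 and 3 to 4 genes; median 0.65 to 0.75).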

Other observations

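Genes of the G1 phase, read from a list of 17 cyclins, CDK4/6 partners and CDK inhibitors, gave the largest EPO differences among the lists used here. Ccnd2, the gene of cyclin D2, rose by 3.43 in stage E1 (limma, adjusted p = 0.000632) and by 3.30 in stage E2 (adjusted p = 0.00286). Cdkn1b, encoding the inhibitor p27, differed by -1.84 in E1 (adjusted p = 0.00364) and by -1.37 in E2 (0.0427). Ccng2, encoding cyclin G2, differed by -2.50 in E1 (0.00837) and -1.48 in E2 (0.0227). Cdkn1a, encoding the inhibitor p21, rose by 0.95 in E2 (adjusted p = 0.00478), and its difference in E1 was 1.23 (0.123). In all, 1 of the 17 rose and 2 fell in E1 (all genes 1.13% and 0.396%), and 3 rose and 4 fell in E2 (all genes 3.19% and 2.42%). Between the unchallenged stages, 7 were higher in E2 (Cdkn1a by 3.48, Cdkn2d by 2.67) and 4 lower (Cdk6 -3.36, Ccnd2 -1.94), where 13.4% and 13.8% of all genes were.

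Of 60 DNA replication and S-phase genes, 34 were higher and 6 lower in unchallenged stage E2, where 13.4% and 13.8% of all genes were. Their median difference was 0.54. Rrm1 and Rrm2, the subunits of ribonucleotide reductase, were higher by 1.49 and 1.70, and the transcription factor gene E2f2 by 2.80. With EPO in E1, 1 of the 60 fell (Pole, encoding a DNA polymerase epsilon subunit, -0.36) and 0 rose, where 0.396% and 1.13% of all genes did. In E2, 2 fell (Orc5 -0.85 and Timeless -0.85) and 1 rose (Cdk2, 0.18), where 2.42% and 3.19% of all genes did. The E2 counts are near those shares and are not read as a result about the list. Pole passed in the interaction, at 0.39, where 0.198% of all genes passed above 0.

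Of 17 erythroid maturation markers, 14 were higher and 1 lower in unchallenged E2 (median 1.62), where 13.4% and 13.8% of all genes were. With EPO 1 fell in E1 (Trim10, -0.49), where 0.396% of all genes fell, and 0 passed in E2. Of 10 progenitor markers, 1 was higher and 4 lower in unchallenged E2, with Kit, used in the selection, at -3.98, Myb at -3.25 and Gata2 at -2.55. The 1 higher is near the share of all genes. With EPO 0 passed in E1 and 1 rose in E2 (Gata2, 0.58), where 3.19% of all genes rose.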
